A study of Mus musculus with 2 samples.

Results

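The miRNA hairpins that mark the vessels and the blood inside the fetal testis are Mir126a, Mir451a, Mir144, Mir142, Mir223 and Mir150. Their reads were all sequences of 16 nt or more that lay exactly, on the sense strand, inside 1 of these 6 annotated hairpins, and no read of theirs lay in any other hairpin. They are 6 of the 2201 miRNA hairpin genes of GENCODE release M21 (GRCm38), of which 1230 had at least 1 read. The reads came from 1 small RNA library of WT testes and 1 of Hsp90α KO testes, both C57BL/6, obtained by natural mating and collected at embryonic day 16.5. Each library was made from a pool of 20 whole testes, with the TruSeq small RNA kit and 50-base reads on a MiSeq. Hsp90α (Hsp90aa1) encodes the inducible cytosolic form of the chaperone HSP90. No genotype had a second library, so that no difference below has a replicate check, and every interval covers the counting of reads only. The germ cells, the supporting cells and the vessels were sequenced together, and fewer cells of a type cannot be told apart from less of its RNA per cell.

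A miRNA is cut from a folded precursor, the hairpin, and guides an Argonaute protein to messenger RNAs through its seed, bases 2 to 8 from its 5′ end. Each of the hairpins has a cell type in which it is best known. Mir126a is the classical miRNA of endothelium and is encoded within Egfl7, a gene of endothelial cells. Mir144 and Mir451a are made from a shared primary transcript in red blood cell precursors under the control of GATA1. Mir451a is the well-known exception to miRNA maturation, because its short stem is cut by Argonaute 2 and trimmed, without Dicer. Mir142 is found throughout the blood lineages, Mir223 is most abundant in granulocytes and other myeloid cells, and Mir150 in mature lymphocytes.

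The RefSeq mature sequences of these hairpins (GRCm38.p6) are shown because the seeds, in capitals, and the 5′ ends are compared with the reads below, and none of them share a seed. The entries are written 5′ to 3′ and lie on the + strand at chr2:26591402-26591423, chr11:78073186-78073207, chr11:78073010-78073032, chr11:78073047-78073066, chr11:87756867-87756887, chr11:87756903-87756925, chrX:96242842-96242864, chrX:96242884-96242905 and chr7:45121798-45121819, in the order shown. The entries mmu-miR-126a-5p and mmu-miR-150-5p are named only.
mmu-miR-126a-3p: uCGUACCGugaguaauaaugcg
mmu-miR-451a: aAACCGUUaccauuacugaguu
mmu-miR-144-5p: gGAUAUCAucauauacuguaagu
mmu-miR-144-3p: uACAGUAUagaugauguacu
mmu-miR-142a-5p: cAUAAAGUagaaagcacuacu
mmu-miR-142a-3p: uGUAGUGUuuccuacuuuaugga
mmu-miR-223-5p: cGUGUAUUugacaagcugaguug
mmu-miR-223-3p: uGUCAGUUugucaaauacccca
mmu-miR-150-3p: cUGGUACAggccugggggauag

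In the genome (GRCm38, all on the + strand), the Mir126a hairpin is on chromosome 2 from 26591357 to 26591429, inside Egfl7, and at least 1 annotated Egfl7 transcript has an exon across it. Mir144 (chromosome 11, 78073005 to 78073070) and Mir451a (78073170 to 78073241) are separated by 99 bases, and no host gene is annotated there. Mir142 is also on chromosome 11, from 87756864 to 87756927, in an intron of the noncoding gene Mir142hg. Mir223 is on chromosome X from 96242817 to 96242926, where an exon of F630028O10Rik covers it, and Mir150 is on chromosome 7 from 45121757 to 45121821, with no annotated gene over it. Further hairpins, Mir126b, Mir451b and Mir142b, are annotated on the opposite strand of Mir126a, Mir451a and Mir142. They had 0 reads in both libraries, which allows up to 1.19 reads per 1000000 hairpin-matching reads (RPM) in WT and 1.17 RPM in KO.

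The WT library held 6409305 reads and the KO library 5589326 reads, of which 2523084 and 2561491 lay in an annotated hairpin. The levels below are RPM of these hairpin-matching reads, and since each read is a whole small RNA they need no division by length. Fragments of the Hsp90aa1 transcript that matched no other gene numbered 2 in WT and 10 in KO. The position of the mutation in the gene is not given in the sources used here, so these few fragments do not check the genotypes, which rest on the labels.

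The levels of the 6 hairpins were far apart, with Mir126a well above the others. Mir126a was read 12951 times in WT and 13184 times in KO, which is 5133 (95% exact Poisson interval 5045 to 5222) and 5147 (5060 to 5236) RPM. It ranked 19th of all hairpins in WT and 18th in KO by reads found in no other hairpin, between Mir30d and Mir151 in WT. It alone held 87.0% of the reads of the 6 hairpins in WT and 89.2% in KO, and the 6 together were 0.590% and 0.577% of the hairpin-matching reads. The endothelial miRNA was therefore among the abundant miRNAs of the fetal testis in both libraries.

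The miRNAs of blood were lower in level. Mir142 had 1121 reads in WT and 935 in KO, or 444 (419 to 471) and 365 (342 to 389) RPM. Mir451a had 578 and 495 reads, or 229 (211 to 249) and 193 (177 to 211) RPM. Its neighbour Mir144 was several times lower than Mir451a, with 113 and 66 reads, or 44.8 (36.9 to 53.8) and 25.8 (19.9 to 32.8) RPM. Mir223 had 99 and 80 reads, or 39.2 (31.9 to 47.8) and 31.2 (24.8 to 38.9) RPM. Mir150 was the rarest, with 26 and 21 reads, or 10.3 (6.73 to 15.1) and 8.20 (5.07 to 12.5) RPM. The order of levels was Mir126a, Mir142, Mir451a, Mir144, Mir223 and Mir150 in WT. The intervals of Mir144 and Mir223 overlapped in both libraries, and Mir223 stood above Mir144 in KO, so that the order of these neighbours was not distinguishable. All other neighbours in the order had separate intervals in both libraries.

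**Figure D1:**
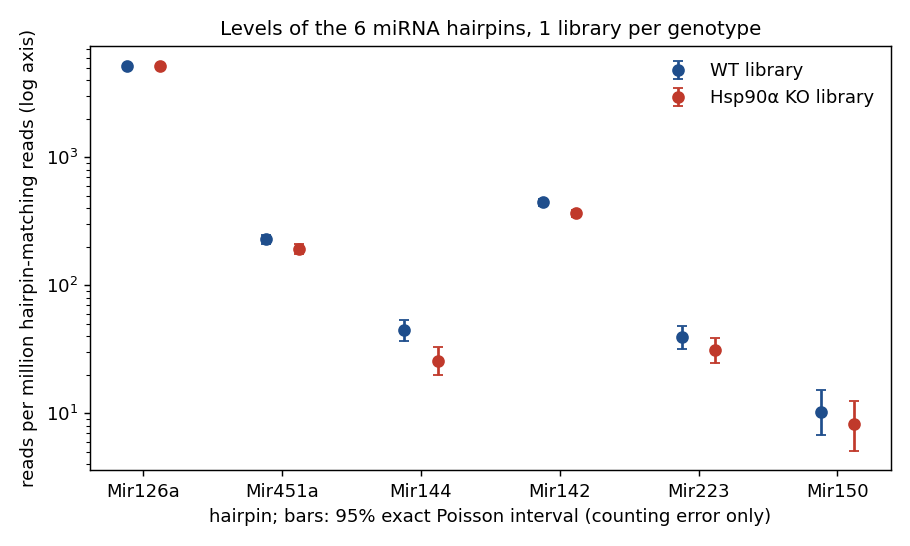
Level of each hairpin in RPM of hairpin-matching reads (log axis) in the WT library (blue) and the Hsp90α KO library (red), with 95% exact Poisson intervals as bars. Mir126a lies at 5133 and 5147 and Mir150 at 10.3 and 8.20, and the intervals of WT and KO are separate only for Mir142 and Mir144.

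The endothelial hairpin had nearly equal levels in both libraries, and the 5 blood hairpins all had KO/WT ratios below 1. Mir126a had a ratio of 1.003 in KO over WT (0.979 to 1.03, exact 95% interval after Clopper and Pearson). The lowest ratio belonged to Mir144, 0.575 (0.418 to 0.786), a 1.74-fold lower level in KO. For Mir142 the ratio was 0.822 (0.752 to 0.897) and for Mir451a 0.844 (0.747 to 0.953), both with intervals below 1. For Mir223 it was 0.796 (0.585 to 1.08) and for Mir150 0.796 (0.426 to 1.47), and these intervals include 1, so that a difference was not detectable at their depth.

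These ratios were set beside those of all hairpins. With 1 library per genotype, a hairpin was counted as past the threshold when its level differed by 1.5-fold or more. The 100 reads over both libraries that this comparison asked for were held by 5 of the 6, all but Mir150 with its 26 and 21 reads. Of these 5, 1 was lower in KO by 1.5-fold or more, Mir144, and 0 were higher. Among the 205 hairpins with at least 100 reads found in no other hairpin, 1.95% were lower by that fold and 0% higher. Mir144 had 1 hairpin below it in this set, the predicted hairpin Gm26318. When reads shared between hairpins were counted for each of them, 458 hairpins had at least 100 reads and 40.0% of these were lower by that fold, with 0% higher. Many of the lower ones are predicted hairpins with few or no reads of their own, in which the same shared reads are counted repeatedly. The 6 hairpins share no reads, so the former set is the one counted as they are.

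By the counting interval, 3 of the 5 (Mir144, Mir142 and Mir451a) lay entirely below 1 and 0 entirely above. In the set of 205 hairpins 20.0% lay entirely below 1 and 17.6% entirely above. The median ratio was 0.809 over all 6 hairpins and 0.981 over the 205, whose interquartile range was 0.893 to 1.08. Of the 205 hairpins, 25 had a lower ratio than Mir142 and 32 a lower one than Mir451a, whereas 114 had a lower one than Mir126a. The ratios depend on the total used, since hairpin-matching reads were 39.4% of all reads in WT and 45.8% in KO. Per read of any kind, Mir451a had a ratio of 0.982 (0.869 to 1.11) and Mir142 0.956 (0.876 to 1.04), Mir126a was at 1.17 (1.14 to 1.20), and Mir144, at 0.670 (0.487 to 0.915), was no longer past 1.5-fold.

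**Figure D2:**
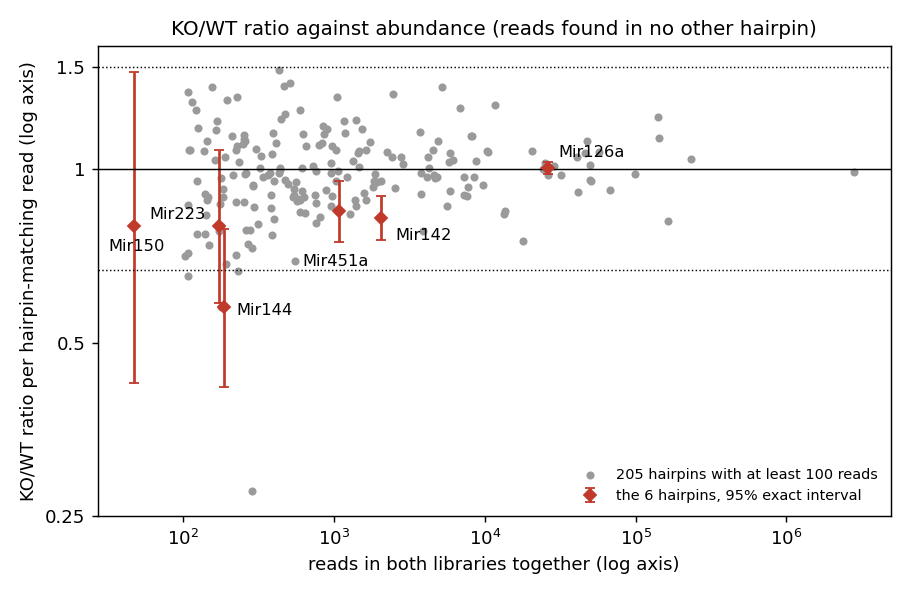
KO/WT ratio per hairpin-matching read (log axis) against reads in both libraries together (log axis) for the 205 hairpins with at least 100 reads of their own (grey) and the 6 vessel and blood hairpins (red diamonds, bars are 95% exact intervals, Mir144 and Mir223 drawn slightly apart). Solid and dotted lines mark a ratio of 1 and a 1.5-fold difference. Mir126a lies on the line at 1, the blood hairpins lie below it, and Mir144 is the only one past 1.5-fold.

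Comparing the hairpins with one another needs no normalizing total. All 15 pairs were tested by Fisher's exact test on reads (two-sided), which compares these libraries and not the genotypes, and 3 pairs differed after Benjamini-Hochberg adjustment. All 3 set Mir126a against a blood hairpin. The KO/WT ratio of Mir126a was 1.22 times that of Mir142 (1.11 to 1.34, exact test, adjusted p = 0.000222), 1.74 times that of Mir144 (1.27 to 2.40, exact test, adjusted p = 0.00226) and 1.19 times that of Mir451a (1.05 to 1.35, exact test, adjusted p = 0.0305). Mir126a against Mir223 gave 1.26 (0.928 to 1.72) and against Mir150 1.26 (0.682 to 2.36), which did not pass. These quotients were above those for Mir142 and Mir451a but rest on fewer reads, so which pairs passed depends on depth. Among the blood hairpins no pair passed. The closest were the clustered pair, with Mir451a at 1.47 times the ratio of Mir144 (1.05 to 2.07, exact test, adjusted p = 0.0845), and Mir144 at 0.700 times that of Mir142 (0.502 to 0.970, with the same adjusted p from the exact test). Mir451a and Mir142 had a quotient of 1.03 (0.883 to 1.19).

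Each hairpin can give a miRNA from its 5′ arm (5p) and its 3′ arm (3p). Mir126a gave mostly 5p reads, 11659 of 12951 in WT and 11893 of 13184 in KO, shares of 90.0% (95% Wilson interval 89.5 to 90.5) and 90.2% (89.7 to 90.7). In Mir142 the 5p share was 96.3% (95.1 to 97.3) and 97.0% (95.7 to 97.9). Mir223 was the reverse, with 5p shares of 11.1% (6.32 to 18.8) and 12.5% (6.93 to 21.5). Mir150 had 25 of 26 reads on 5p in WT and 20 of 21 in KO. So 5p led in Mir126a, Mir142, Mir144 and Mir150 and 3p in Mir223, in both libraries alike.

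Mir144 was the only hairpin whose 5p share moved by over 10 percentage points, from 87 of 113 reads in WT, 77.0% (68.4 to 83.8), to 42 of 66 in KO, 63.6% (51.6 to 74.2). Its 5p reads had a KO/WT ratio of 0.476 (0.321 to 0.695) and its 3p reads, 26 in WT and 24 in KO, a ratio of 0.909 (0.4998 to 1.65). The lower reads of Mir144 in KO were thus mostly 5p reads, though the intervals of the 2 arm ratios overlapped. The full mature form of miR-144-5p was read 71 times in WT and 39 times in KO, and that of miR-144-3p 16 and 20 times. The share itself did not differ detectably between the libraries (Fisher's exact test, p = 0.0598, 0.299 after Benjamini-Hochberg adjustment over 5 hairpins). For the other hairpins the same test gave p from 0.461 to 1 before adjustment.

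**Figure D3:**
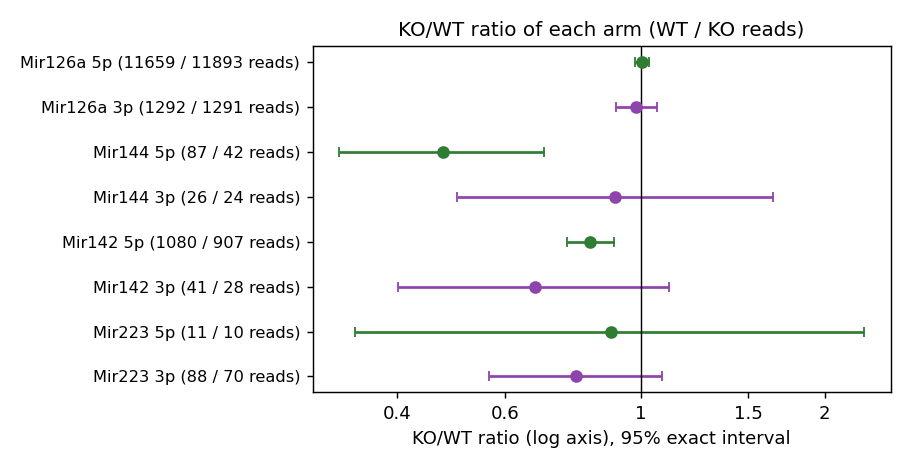
KO/WT ratio (log axis) of the 5p arm (green) and the 3p arm (purple) of Mir126a, Mir144, Mir142 and Mir223, with 95% exact intervals as bars and the WT and KO reads beside each name. The 5p arms of Mir144 and Mir142 lie below 1 with their whole interval, and both arms of Mir126a lie close to 1.

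The 5′ end fixes the seed, and the reads did not always start where the RefSeq entry does. Counting positions from 1 at the 5′ end of the hairpin, miR-142a-5p is annotated from position 4. Of the Mir142 5p reads, 864 of 1080 in WT began at position 2, a share of 80.0% (77.5 to 82.3), against 188 or 17.4% (15.3 to 19.8) at position 4. In KO 703 of 907 began at position 2, 77.5% (74.7 to 80.1), and 180, or 19.8% (17.4 to 22.6), at position 4. The most read form of each of these starts follows because the seeds, in capitals, differ, and the seed CCAUAAA was the more frequent in both libraries, ahead of the annotated AUAAAGU. After them stands the 3p form read most, which starts 3 bases inside the annotated start and has its own seed.
Mir142 5p from position 2, 568 reads in WT and 486 in KO: cCCAUAAAguagaaagcacuac
Mir142 5p from position 4, 176 reads in WT and 163 in KO: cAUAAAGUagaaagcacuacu
Mir142 3p from position 43, 23 reads in WT and 17 in KO: aGUGUUUCcuacuuuauggaug

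On the 3p arm of Mir142, 23 of 41 reads in WT and 18 of 28 in KO began at position 43, and 14 and 7 at the annotated position 40. The 3p arm of Mir126a, which lowers repressors of VEGF signalling in endothelium according to earlier work on this miRNA, also had several starts. Its annotated start at position 46 held 64.6% (61.9 to 67.1) of 1292 reads in WT and 63.9% (61.2 to 66.5) of 1291 in KO. Position 47 held 24.8% (22.6 to 27.3) and 25.9% (23.6 to 28.3), and position 45 held 10.2% (8.68 to 11.99) and 9.91% (8.40 to 11.7). The 3 forms that follow carry these starts and shift the seed by 1 base each.
Mir126a 3p from position 46, 622 reads in WT and 628 in KO: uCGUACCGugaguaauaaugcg
Mir126a 3p from position 47, 265 reads in WT and 273 in KO: cGUACCGUgaguaauaaugcg
Mir126a 3p from position 45, 54 reads in WT and 49 in KO: cUCGUACCgugaguaauaaugcg

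On several other arms the start was nearly fixed. The 5p arm of Mir126a began at position 9 in 99.7% of reads in both libraries. All 578 WT and all 495 KO reads of Mir451a began at position 17, the annotated start. In Mir223 the annotated 3p start at position 68 held 82 of 88 reads in WT and 66 of 70 in KO, and every 5p read of Mir150 began at position 6. The 5p arm of Mir144 began at its annotated position 6 in 84 of 87 reads in WT and in all 42 in KO. Its 3p arm varied more in WT, with 21 of 26 reads at the annotated position 43 and 5 at position 42, against 23 and 1 of 24 in KO, and the few 5p reads of Mir223 began at the annotated position 26 in 9 of 11 and 8 of 10 cases. For each of these shares the intervals of WT and KO overlapped, those of Mir142 and Mir126a included, so that the choice of start did not differ detectably between the libraries.

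The 3′ ends of Mir451a reached further than those of most of the other hairpins. Its reads were 23 nt long in 362 of 578 cases in WT, 62.6% (58.6 to 66.5), and in 279 of 495 in KO, 56.4% (52.0 to 60.7). A second peak stood at 26 nt, with 105 reads or 18.2% (15.2 to 21.5) in WT and 94 or 19.0% (15.8 to 22.7) in KO, and reads reached 30 nt. The RefSeq length of 22 nt was held by 38 and 49 reads. Because the start is fixed, the following forms differ at the 3′ end alone, where the longer ones extend further along the hairpin, and the seed in capitals is the same in each.
Mir451a 22 nt, 38 reads in WT and 49 in KO: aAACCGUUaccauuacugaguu
Mir451a 23 nt, 362 reads in WT and 279 in KO: aAACCGUUaccauuacugaguuu
Mir451a 24 nt, 14 reads in WT and 28 in KO: aAACCGUUaccauuacugaguuua
Mir451a 25 nt, 25 reads in WT and 14 in KO: aAACCGUUaccauuacugaguuuag
Mir451a 26 nt, 105 reads in WT and 94 in KO: aAACCGUUaccauuacugaguuuagu

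Reads of 25 nt or more were 137 of 578, or 23.7% (20.4 to 27.3), of the Mir451a reads in WT and 120 of 495, or 24.2% (20.7 to 28.2), in KO. The shares did not differ detectably (Fisher's exact test, p = 0.886). Mir223 came next, with 11 of 99 reads or 11.1% (6.32 to 18.8) in WT and 8 of 80 or 10% (5.15 to 18.5) in KO. In the other 5 hairpins together, of which Mir126a holds most reads, the share was 0.168% and 0.105%. Over all hairpins the share was 1.06% and 0.788%. That pool also holds the predicted hairpins with shared reads, whose part in the share was not counted. Mir142 had 0 of 1121 such reads in WT, which allows a share of up to 0.268%, and 0 of 935 in KO, which allows up to 0.321%.

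Mir223, with 11 and 8, and Mir126a, with 12 and 7, held all but 1 of the long reads outside Mir451a, and nearly all ran from the 5p arm towards the loop. In Mir223, 10 of the 11 5p reads in WT and 8 of the 10 in KO were 26 to 31 nt long, and the annotated 23-nt miR-223-5p was read 0 times in both libraries. In Mir126a, 12 of 11659 5p reads in WT and 6 of 11893 in KO were 32 to 38 nt long. The main product of Mir126a was sharply 21 nt long, at 91.8% of reads in WT and 91.95% in KO. That of Mir142 was 22 nt, at 53.6% and 55.4%. The 3p reads of Mir223 spread from 18 to 25 nt, with 23 nt the most frequent at 30 of 88 and 26 of 70 reads.

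**Figure D4:**
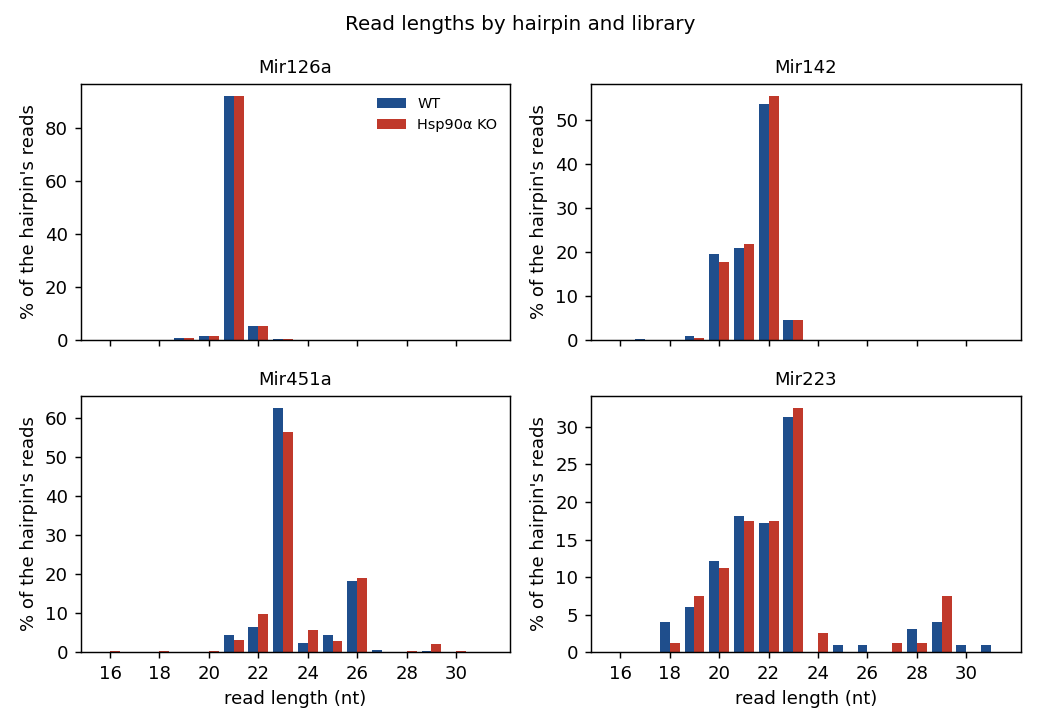
Read lengths (nt) of Mir126a, Mir142, Mir451a and Mir223 as percentages of each hairpin's reads in the WT (blue) and KO (red) library, from 16 to 31 nt (the 32 to 38 nt reads of Mir126a are left out). Mir126a is sharp at 21 nt, Mir451a peaks at 23 nt and again at 26 nt, and Mir223 has a broad range with a small group of long reads.

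Reads that continue with 1 to 3 bases not found in the hairpin, after at least 18 matching bases, were counted apart. Such 3′ tails can be added by terminal nucleotidyl transferases, and sequencing errors near the 3′ end give the same reads, which was not tested. Reads that run past the annotated end of a hairpin would be counted here too. The most read 3p form of Mir142 ends on the last base of its hairpin. Tailed reads were 4.84% (4.49 to 5.22) of the Mir126a reads in WT and 5.06% (4.71 to 5.44) in KO, against 11.9% and 11.8% over all hairpins. The latter shares pool reads, and Mir10b alone held 1410287 of the 2523084 hairpin-matching reads in WT and 1415066 of 2561491 in KO. A single uracil made up 44.0% of the Mir126a tails in WT and 45.0% in KO, and a single adenine 43.6% and 40.7%. In Mir142 the tailed share was 2.78% (1.97 to 3.89) and 3.21% (2.27 to 4.52), and in Mir451a, with 8 and 6 such reads, 1.37% (0.693 to 2.67) and 1.20% (0.550 to 2.59). Mir223 had the highest share in WT, 34 of 133 reads or 25.6% (18.9 to 33.6), and 15 of 95 or 15.8% (9.81 to 24.4) in KO. Of these, 19 and 11 ended in a single uracil and 7 and 1 in a pair of uracils. Counting tailed reads changed the KO/WT ratio of Mir223 to 0.704 (0.536 to 0.924), with an interval below 1. Mir150 had 3 of 29 tailed reads in WT and 5 of 26 in KO, and Mir144 had 0 in both libraries.

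Other miRNAs of the same cell types, from lists put together with earlier results of these libraries known, were not uniform. Beside Mir126a, the endothelium list holds Mir130a, Mir221, Mir222 and the unread Mir126b. Mir130a, a miRNA of endothelial and many other cells, was higher in KO, with 2989 reads in WT, 3871 in KO and a ratio of 1.28 (1.22 to 1.34). Mir221 had 76 and 68 reads and a ratio of 0.881 (0.626 to 1.24), and Mir222, from the same cluster, 78 and 61 reads and 0.770 (0.542 to 1.09). In all, 1 of the 4 with at least 100 reads lay above 1 with its whole interval and 0 lay below, with a median ratio of 0.942, where 17.6% and 20.0% of the 205 hairpins did.

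Of the 4 red blood cell miRNAs with at least 100 reads in no other hairpin, 2 lay below 1 with their whole interval, Mir144 and Mir451a, and 0 above, at a median ratio of 0.910, beside 20.0% below and 17.6% above over the 205 hairpins. Mir486, which is rich in red cells and also in muscle, had 7082 and 6302 reads, of which 6974 and 6195 also lay in the hairpin Mir3107. With the shared reads its ratio was 0.877 (0.847 to 0.907), and with its own 108 and 107 reads 0.976 (0.740 to 1.29), so that its direction was not distinguishable on the latter. Counted with shared reads, as first planned, 3 of the 4 red blood cell miRNAs lay below 1 and 0 above, at a median of 0.860. No matching share of intervals was counted over all hairpins with shared reads. Mir363 had 49 and 65 reads and a ratio of 1.31 (0.888 to 1.93). Of the 5 white blood cell miRNAs with at least 100 reads, 1 lay below 1, Mir142, and 0 above, at a median of 0.957. This count is near the shares of the 205 hairpins, 20.0% below and 17.6% above. Mir342 had 1072 and 1164 reads and a ratio of 1.07 (0.984 to 1.16), Mir146 242 and 235 reads and 0.957 (0.796 to 1.15), and Mir146b 2115 and 2151 reads and 1.002 (0.943 to 1.06). Mir155 had only 8 and 11 reads. Mir223 and Mir150, both at 0.796 with intervals that include 1, had ratios near that of Mir142. The other members of the list had a summed ratio of 1.02 (0.974 to 1.07), with most reads from Mir146b and Mir342. The list as a whole therefore had no common direction.

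Markers of other cells in the testis moved as well. The muscle of vessel walls is marked by Mir143 and Mir145a, which other mesenchyme also expresses. Mir143 had 89553 reads in WT and 73755 in KO and a ratio of 0.811 (0.803 to 0.819), and Mir145a 852 and 763 reads and a ratio of 0.882 (0.799 to 0.974). The germ cell miRNAs of the miR-290 and miR-302 clusters went the other way. Their summed level, with Mir292, which the annotation lists under that name and the list as Mir292a, was 803 RPM in WT and 1040.4 in KO, a ratio of 1.30 (1.22 to 1.37). Of the 5 hairpins with at least 100 reads, 3 lay above 1 with their whole interval and 0 below, against 17.6% and 20.0% of the 205 hairpins. Mir291a had 173 and 260 reads and a ratio of 1.48 (1.22 to 1.80), Mir293 194 and 274 reads and 1.39 (1.15 to 1.68), Mir295 1045 and 1428 reads and 1.35 (1.24 to 1.46), while Mir294 had 182 and 213 reads and 1.15 (0.941 to 1.41) and Mir292 394 and 443 reads and 1.11 (0.965 to 1.27). The Sertoli cell miRNA Mir202 had 5037 and 5466 reads and a ratio of 1.07 (1.03 to 1.11). Of the 13 hairpins of these clusters, 3 had no read. The part of these shifts in the ratios of the blood hairpins was not tested.

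**Figure D5:**
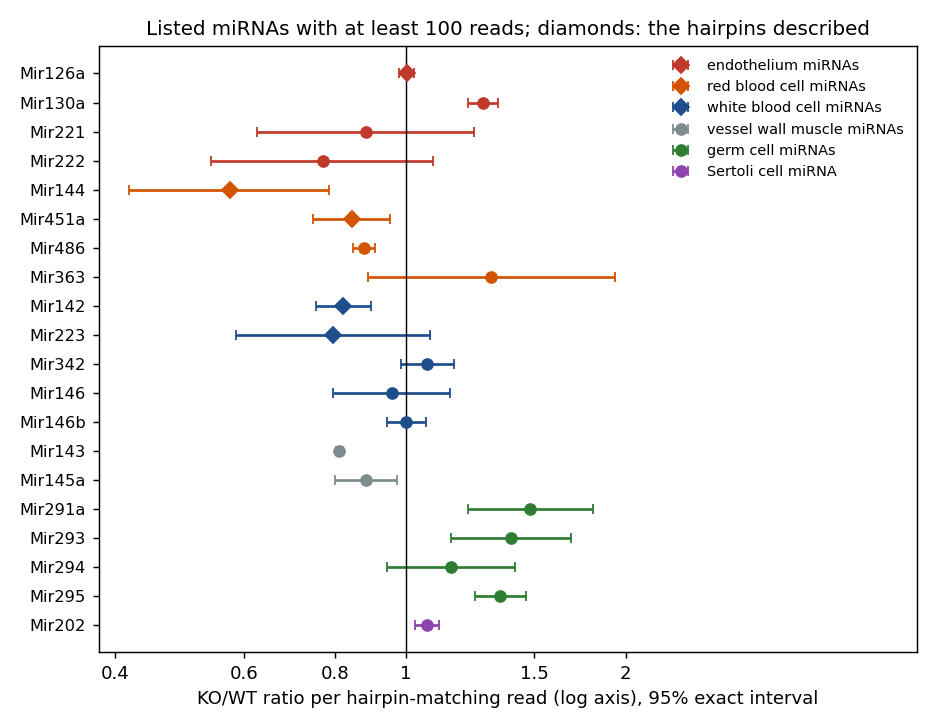
KO/WT ratio per hairpin-matching read (log axis) of the listed miRNAs with at least 100 reads, coloured by list, with 95% exact intervals as bars and diamonds for the hairpins described here. The red blood cell miRNAs other than Mir363 and the vessel wall miRNAs have ratios below 1, and Mir130a, Mir202 and 3 of the 4 germ cell miRNAs drawn lie above 1 with their whole interval. Mir486 is drawn with its shared reads, and Mir292 is left out.

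Fragments of messenger RNAs in the same libraries gave a readout of the cell types from reads outside the hairpins. Fragments of the globin transcripts, the main messengers of red blood cells, numbered 58 in WT and 51 in KO, at a KO/WT ratio of 0.866 (0.583 to 1.28). The sum held opposite shifts, with 13 and 25 alpha-type fragments (1.89, 0.933 to 4.03) and 45 and 26 beta-type fragments (0.569, 0.337 to 0.943). All 9 endothelium genes had reads, 31 and 27 in all, at a ratio of 0.858 (0.493 to 1.49). Among them were Egfl7 with 7 and 14 reads, Cdh5 with 7 and 1 and Pecam1 with 3 and 0. Egfl7 hosts Mir126a and held 14 of the 27 reads in KO, and the sum without it was not computed. Of the 9 white blood cell genes, 3 had reads, 4 in WT and 2 in KO, and Ptprc, the pan-leukocyte marker CD45, had none. Globin and endothelial transcripts were thus present in both pools, and neither the globin nor the endothelial sum differed detectably. Per hairpin-matching read, the beta-type globins were lower in KO by their counting interval. Hairpin-matching reads were 39.4% of the WT library and 45.8% of the KO library. The globin ratios per read of any kind were not computed, and the split by type was made after the values were seen. The alpha-type ones had a ratio above 1 with an interval that includes 1, so the globins gave no common direction.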

How the data were processed

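For each library the authors deposited the raw read count of every distinct sequence after adaptor clipping, without normalization, and the submitters' processing notes name mm9. No coordinates were taken from that build, since every sequence from 16 nt upward was looked up, without mismatch and in sense direction, in the 2202 miRNA transcripts of GENCODE M21 (GRCm38). Counts were divided by all hairpin-matching reads, after the paper's use of miRNA reads as the normalizer. The floor of 3 reads is 1.19 (WT) and 1.17 (KO) reads per 1000000 of them.

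Ratios carry exact conditional (Clopper-Pearson) 95% intervals, levels exact Poisson and shares Wilson intervals. Pairs of hairpins and arms were compared by Fisher's exact test with Benjamini-Hochberg adjustment, and the long reads of Mir451a by the same test without adjustment. Arms were told apart by the midpoint of the read, and Mir451a was given none. The set of hairpins counted on unshared reads was added after seeing the data. mRNA fragments were reads in listed genes and in no transcript of another gene. The sum over the red blood cell mRNA list is not reported here.

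The 6 hairpins and all lists were chosen with earlier results of these data known. All 6 are named, and listed miRNAs that reached 100 reads over both libraries. Mir155, Egfl7, Cdh5, Pecam1, Ptprc, Mir292, Mir3107, Gm26318 and the split of the globins by type were named after their values were seen. RefSeq (GRCm38.p6) held at least 1 mature entry for each of the 6. Alternatives covered the normalizing total, distinct sequences, sequences in no other hairpin, length, tails and sequences read once. The matching and the statistics were tested on simulated data (Python 3.11.15, numpy 2.4.6, scipy 1.17.1, matplotlib 3.10.9).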

Additional observations from a re-analysis of the deposited data

How the results depend on the processing

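Each of the 6 KO/WT ratios was recomputed under 10 alternatives, and 48 of these 60 values kept their direction and their side of the 95% interval. Of the 10, the count of sequences in no other hairpin could not change any of the 6 ratios, since these hairpins share no reads. Its values are among the 48. Normalized to reads of all lengths, the ratio was 1.17 for Mir126a, now with its interval above 1, and 0.982 for Mir451a and 0.956 for Mir142, whose intervals then included 1. Divided by the median ratio of all hairpins, repeats and shared reads included, the values were 1.16, 0.979 and 0.953 in the same order. Under each of these totals the number of hairpins past 1.5-fold was 0 in place of 1. Under the main total it was 0 at 2-fold, and 3 had an interval on one side of 1. This last count, the median over unshared reads, Mir292 in the germ cell list and the unshared reads of Mir486 were chosen after seeing the data. Without Mir10b in the total, Mir126a was at 0.988. With each distinct sequence counted once, Mir451a was at 1.29, Mir223 at 1.11, Mir144 at 0.545 and Mir142 at 0.919, all with intervals that include 1, since this leaves few counts. With tailed reads Mir223 was at 0.704. The share of all hairpins past 1.5-fold was 39.96% with shared reads and 1.95% without. Mir144 lay between 0.545 and 0.670 and had an interval below 1 under 9 of its 10 alternatives. For the other shifts the cause was not tested. No paired analysis was possible because each genotype has 1 library. Depth limits Mir144, Mir223 and Mir150 most, with at most 113 reads in a library.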
